A study of Mus musculus with 30 samples.

Results

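The genes of oxidative phosphorylation were followed across 6 groups of cultured mouse microglia, comparing those encoded in the nucleus with those encoded in mitochondrial DNA. Members were protein-coding genes whose symbols begin with Nduf, Uqcr, Cox4 to Cox8 or Atp5, and the 13 protein-coding genes of the mitochondrial genome. This gave 103 of 38031 genes, 90 nuclear and 13 mitochondrial, and the rule uses symbols and genome, not measured values. The symbols also take in Ndufaf genes, which encode assembly factors of complex I and not subunits. Microglia were grown as primary cultures from the brains of C57BL/6 mice aged 21 days after birth, and 30 libraries of total RNA, stranded and depleted of ribosomal RNA, were sequenced. Wild-type (WT) cultures gave 5 control, 6 LPS and 4 α-synuclein fibril libraries, and Lrrk2-/- (KO) cultures gave 6 control, 4 LPS and 5 fibril libraries. LPS (lipopolysaccharide) is a bacterial cell wall component, α-synuclein fibrils are aggregates of the protein that accumulates in Parkinson's disease, and LRRK2 is a kinase linked to that disease. The comparisons asked how these transcripts differed with each stimulus and between Lrrk2-/- and WT cultures. The sources used here give neither doses, treatment times and sex nor how the knockout was made. Nothing in them says that libraries of the same group are separate cultures or mice, so p-values measure the spread between these libraries, which may be technical.

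Oxidative phosphorylation passes electrons from NADH and succinate along complexes I to IV of the inner mitochondrial membrane, pumps protons, and lets ATP synthase (complex V) make ATP as they flow back. Complexes I, III, IV and V are built from subunits of both genomes, while complex II is encoded wholly in the nucleus. The mitochondrial genes are transcribed as long RNAs from both strands of a circular genome and cut apart, so their levels do not depend on promoters of their own. Macrophages and microglia stimulated with LPS are known for a shift of ATP production towards glycolysis.

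Gene counts per library ranged from 8936310 to 35677005, with a median of 20432234. Levels are given as CPM, read counts relative to the size of the library after scaling it with a TMM factor. Lrrk2, the targeted gene, lay between 10.3 and 16.7 CPM in WT and between 1.96 and 4.35 CPM in KO control libraries, between 11.4 and 15.9 against 2.22 and 4.68 CPM with LPS, and between 6.87 and 9.49 against 0.731 and 1.88 CPM with fibrils, without overlap. The genotypes also differed without overlap in Nnt, at 61.0 to 97.5 CPM in KO and 36.5 to 40.9 CPM in WT controls. Nnt stood at 71.9 to 79.9 against 33.4 to 37.0 CPM with LPS, and 45.6 to 60.5 against 30.5 to 31.6 CPM with fibrils. The bearing of genotype differences other than Lrrk2 on the results was not tested. The summed level of 12 microglia markers was 4562 to 7763 CPM, although the microglia gene Siglech was at or near 0 in every group. Markers of other cells were present: 9 astrocyte markers summed to 16.4 to 308 CPM and 8 fibroblast and leptomeningeal markers to 0.216 to 126 CPM. In such bulk RNA, fewer cells of a type and less RNA per cell cannot be told apart. KO control replicate 6 and KO fibril replicate 5 held the least mitochondrial messenger RNA, 1.02% and 1.09% of gene counts against 1.57% to 2.61% in the other libraries.

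Messenger RNAs of the mitochondrial genome were the more abundant set. Their 13 genes summed to 18108 ± 2034 CPM in WT control libraries (SD, n = 5), against 7725 ± 571 CPM for the nuclear members, and the ratio of the sums ran from 1.51 to 2.87 over the 30 libraries. Per kilobase of annotated exon, the median mitochondrial gene stood at 812 CPM per kb (36.3 to 6443) and the median of the 83 nuclear members that passed the filter on low counts at 40.4 CPM per kb (1.57 to 401). The length is the union of all annotated exons. It can far exceed the longest coding transcript of a nuclear gene (Atp5l 6443 against 544 bases, Uqcrc1 4135 against 1653), but not that of mt-Co1 (1545 for both). Such a union lowers the level per kb, so orders of genes, complexes and sets by it hold for this scaling only. Within the mitochondrial set the complex IV subunits led, with mt-Co1 at 6443, mt-Co3 at 3951 and mt-Co2 at 3324 CPM per kb. They were followed by the ATP synthase genes mt-Atp8 (1446) and mt-Atp6 (1125), then mt-Nd3 (1109), mt-Nd1 (812) and mt-Cytb, the cytochrome b of complex III (385 CPM per kb). The complex I genes mt-Nd4 (153), mt-Nd2 (138), mt-Nd5 (105), mt-Nd6 (55.8) and mt-Nd4l (36.3 CPM per kb) were lowest and lay among the nuclear subunits. Mt-Nd6 is the only protein-coding gene on the other strand.

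Some mitochondrial genes share bases, so that their counts are not fully separate readings. The 2 longest overlaps on the same strand of the mitochondrial chromosome of GRCm38 are shown with the shared bases in capitals and 15 flanking bases on each side, because they mark the genes whose reads can belong to either.
mt-Atp8 and mt-Atp6, chrM:7927-7969, + strand: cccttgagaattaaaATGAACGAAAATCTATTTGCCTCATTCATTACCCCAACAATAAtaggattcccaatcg
mt-Nd4l and mt-Nd4, chrM:10167-10173, + strand: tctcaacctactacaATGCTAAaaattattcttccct
Both pairs overlapped in another reading frame on the same strand, 43 bases in the first and 7 in the second. Mt-Nd5 and mt-Nd6 overlapped by 14 bases on opposite strands, and mt-Atp6 and mt-Co3 by 1 base on the same strand.

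**Figure D1:**
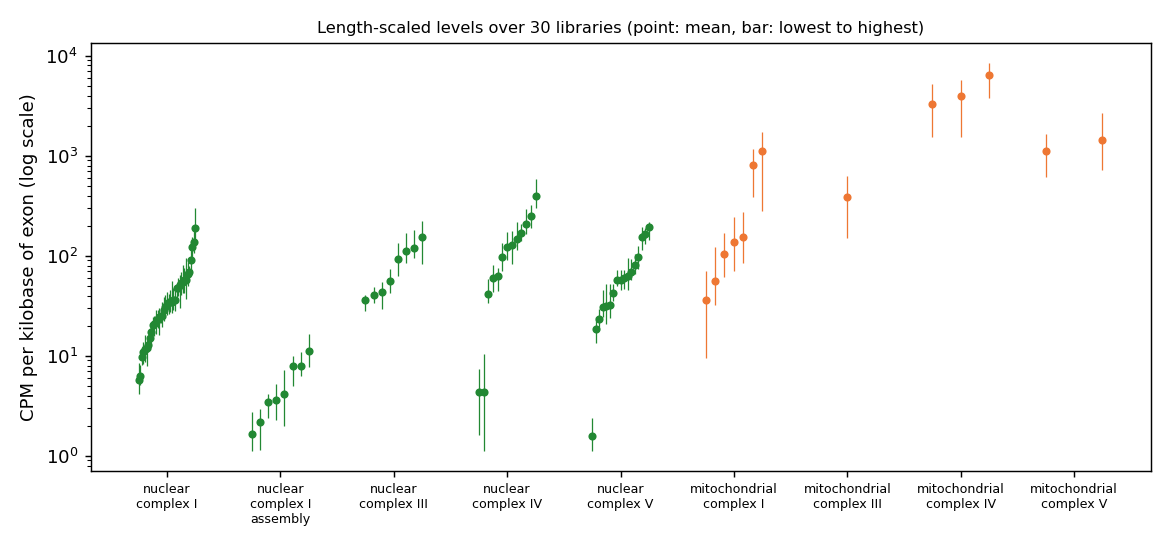
Length-scaled level of each of the 96 tested genes (CPM per kb of exon, log axis, mean over 30 libraries) by complex, nuclear and mitochondrial genes apart, with bars from the lowest to the highest library. The mitochondrial genes run from 36.3 to 6443 CPM per kb and the nuclear ones from 1.57 to 401.

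Among nuclear subunits the level differed by complex, with medians of 122 CPM per kb for complex IV, 74.4 for complex III, 57.3 for complex V and 33.3 for complex I. The highest and lowest genes were Cox8a (401) and Cox7a1 (4.33) in complex IV, Uqcr11 (156) and Uqcrc1 (35.9) in complex III, Atp5a1 (194) and Atp5s (1.57) in complex V, and Ndufa2 (191) and Ndufb2 (5.69 CPM per kb) in complex I. The 8 assembly factors of complex I were scarcer, with a median of 3.91 CPM per kb, from Ndufaf2 (1.64) to Ndufaf8 (11.1).

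Where a complex IV subunit has isoforms used in different tissues, microglia held the widely expressed form. Cox6a1, the form found in most tissues, stood at 211 CPM per kb against 4.36 for Cox6a2, the heart and muscle form. Cox7a2 reached 122 CPM per kb against 4.33 for the muscle form Cox7a1, and the related Cox7a2l reached 127. Cox4i1 stood at 170 CPM per kb, while Cox4i2, the form of low oxygen and lung, had 17 counts in all and was not tested. Cox6b1 (253 CPM per kb) had a testis partner, Cox6b2, with 75 counts over 22 libraries, and Cox7b (98.4) and Cox8a had the partners Cox7b2, Cox8b and Cox8c with no count. A count of 0 over all libraries allows a level of up to 0.00467 CPM (3 counts, counting error only). Ndufa4, now known as a subunit of complex IV but grouped by its symbol with complex I in the medians and counts here, stood at 90.2 CPM per kb, its relative Ndufa4l2 had 5 counts, the related AA467197 ran from 1.31 to 17.8 CPM with no call in any comparison, and a second gene record for Atp5o had none. These 7 untested genes account for the difference between 103 members and the 96 tested. The 3 genes for the c-ring of ATP synthase were ordered Atp5g3 (68.4), Atp5g2 (30.7) and Atp5g1 (18.4 CPM per kb). That order depends on the exon length, 1675 bases for Atp5g2 and 4912 for Atp5g1. Without length scaling, Atp5g1 lay above Atp5g2 (mean log2 CPM 6.48 against 5.68, and 7.21 for Atp5g3).

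Changes between groups were measured as log2 fold changes ± standard error (SE) from a quasi-likelihood count model in edgeR fitted to 14346 genes. A gene is termed called when its p, adjusted over all 14346 genes by the Benjamini-Hochberg method, was under 0.05. In each of the 7 pairwise comparisons the share of called members lay below that of all genes in both sets. Most counts under alternative settings are given without the share of all genes called in the same setting. Such counts do not show whether members differed from all genes there.

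In WT microglia given LPS, 1 of 83 nuclear and 0 of 13 mitochondrial members were called, while 15.1% of all genes were (7.1% higher and 8.03% lower). The nuclear gene, Ndufaf4, fell. With library size as the sole scaling, 33 nuclear members were called, all lower. The share of all genes called at that scaling is not given here, and their median also fell, as given below. For the mitochondrial set, 0 genes had an unadjusted p under 0.05 in edgeR, and DESeq2 and limma-voom each called 0. The nuclear sum was 7439 ± 296 CPM with LPS (n = 6) and 7725 ± 571 CPM in controls (n = 5), and the mitochondrial sum 20151 ± 1263 against 18108 ± 2034 CPM. The nuclear median was -0.08, with 71 genes below 0, and the mitochondrial median 0.17, with all 13 genes above 0 (0.03 to 0.37). When library size alone set the scaling, these medians became -0.28 and -0.03, and that of all genes moved from -0.02 to -0.23, so only the order of the sets was common to both scalings.

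In KO microglia given LPS, 1 nuclear and 0 mitochondrial members were called against 13.7% of all genes (6.34% higher and 7.35% lower). The nuclear gene, Uqcrfs1, rose, whereas library size alone gave 3 nuclear calls, all lower. In the mitochondrial set 1 gene had an unadjusted p under 0.05, mt-Co1 (0.36 ± 0.15, adjusted p = 0.127 in edgeR), and DESeq2 and limma-voom each called 0. Nuclear members summed to 8058 ± 686 CPM (n = 4) against 7757 ± 1219 CPM in KO controls (n = 6), and mitochondrial members to 21304 ± 2596 against 17479 ± 4673 CPM. Medians were 0.03 and 0.17, and -0.15 and -0.02 with library size alone, where that of all genes was -0.21. Unlike in WT, the mitochondrial genes were split, 7 above and 6 below 0 (-0.30 to 0.36). Without KO control replicate 6 and KO fibril replicate 5 the medians were -0.01 and 0.03. Without 7 libraries that stood apart in composition, depth or markers, 2 mitochondrial genes were called, mt-Co3 (0.35, adjusted p = 0.0293 in edgeR) and mt-Nd3 (0.39, adjusted p = 0.0396). Both names were chosen after their values were seen.

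With fibrils, 6 members were called in WT and 3 in KO. In WT, 29.3% of all genes were called (13.9% higher and 15.5% lower), against 3 of 83 nuclear members, of which Ndufaf3 rose and Ndufaf7 and Cox6a2 fell, and 3 of 13 mitochondrial members, mt-Nd2, mt-Nd4 and mt-Nd5, which fell. In KO, 23.8% of all genes were called (12.2% higher and 11.6% lower), against 3 nuclear members, of which Ndufaf3 and Ndufaf4 rose and Ndufaf7 fell, and 0 mitochondrial members. Without the 7 libraries that stood apart, nuclear calls were 9 in WT (7 higher) and 10 in KO (9 higher), among the latter Atp5b of ATP synthase (0.23, adjusted p = 0.0112 in edgeR) and Uqcrb of complex III (0.34, adjusted p = 0.0162), named after their values were seen. A model of only the compared groups called 9 and 1, and library size alone 4 and 3, all lower. None of the 13 mitochondrial genes had an unadjusted p under 0.05 in KO, and DESeq2 and limma-voom each called 0. The nuclear sum was 8230 ± 123 CPM in WT (n = 4) and 7792 ± 899 CPM in KO fibril libraries (n = 5), and the mitochondrial sum 18351.5 ± 1059 and 16465.5 ± 3541 CPM.

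Set medians with fibrils were small. In WT the nuclear median was 0.09 and the mitochondrial one -0.15, and with library size alone -0.11 and -0.35, where that of all genes went from -0.05 to -0.25. In KO they were 0.01 and -0.22, with all 13 mitochondrial genes below 0 (-0.01 to -0.48), and -0.09 and -0.32 with library size alone. Without the 7 libraries that stood apart the KO medians were 0.13 and -0.04.

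**Figure D2:**
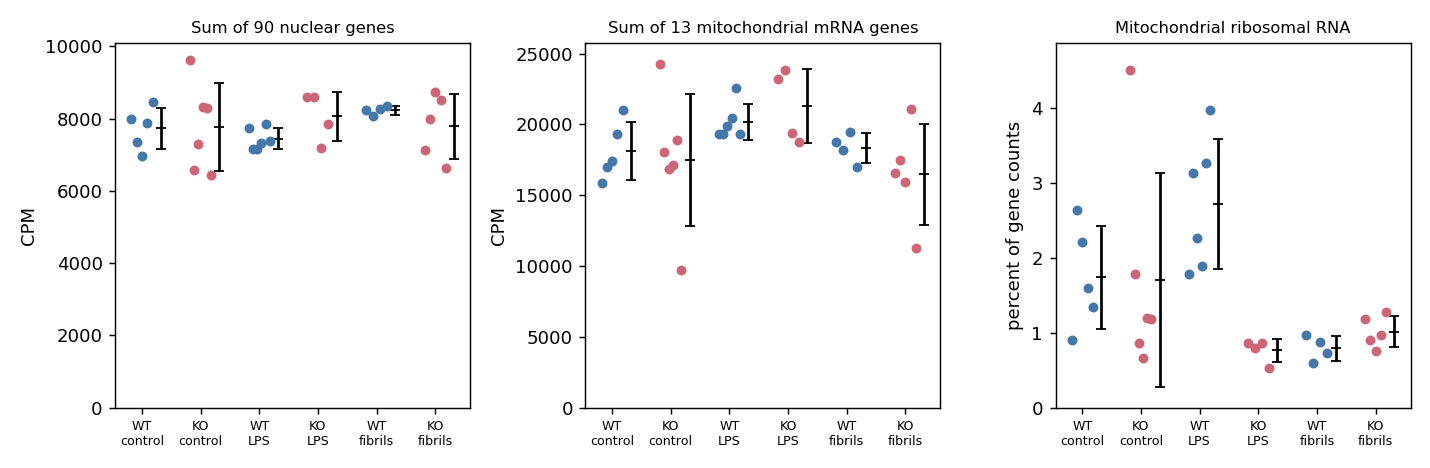
Summed CPM of the 90 nuclear and 13 mitochondrial members, and mitochondrial ribosomal RNA as percent of gene counts, in each library by group. Points are libraries, and black marks with bars are group means with SD. The 2 lowest mitochondrial sums, 9698 and 11245 CPM, belong to KO control replicate 6 and KO fibril replicate 5.

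The precision of the fit bounds the size of these changes. The 95% interval of the fold change lay within 1.5-fold in either direction for 80 of 83 nuclear members with LPS in WT, 78 with LPS in KO, 76 with fibrils in WT and 79 with fibrils in KO. The same held for 46.7%, 43.5%, 37.9% and 42.3% of all genes. Among the 13 mitochondrial genes it held for only 5, 4, 5 and 4. Their median SE was 0.205 to 0.227 over the pairwise comparisons, against 0.110 to 0.121 for nuclear members and 0.173 to 0.192 for all genes, so smaller mitochondrial changes were not detectable at this spread. The subunits of complexes I, III, IV and V without assembly factors gave 0, 1, 1 and 0 called genes of 75 in those 4 comparisons.

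**Figure D3:**
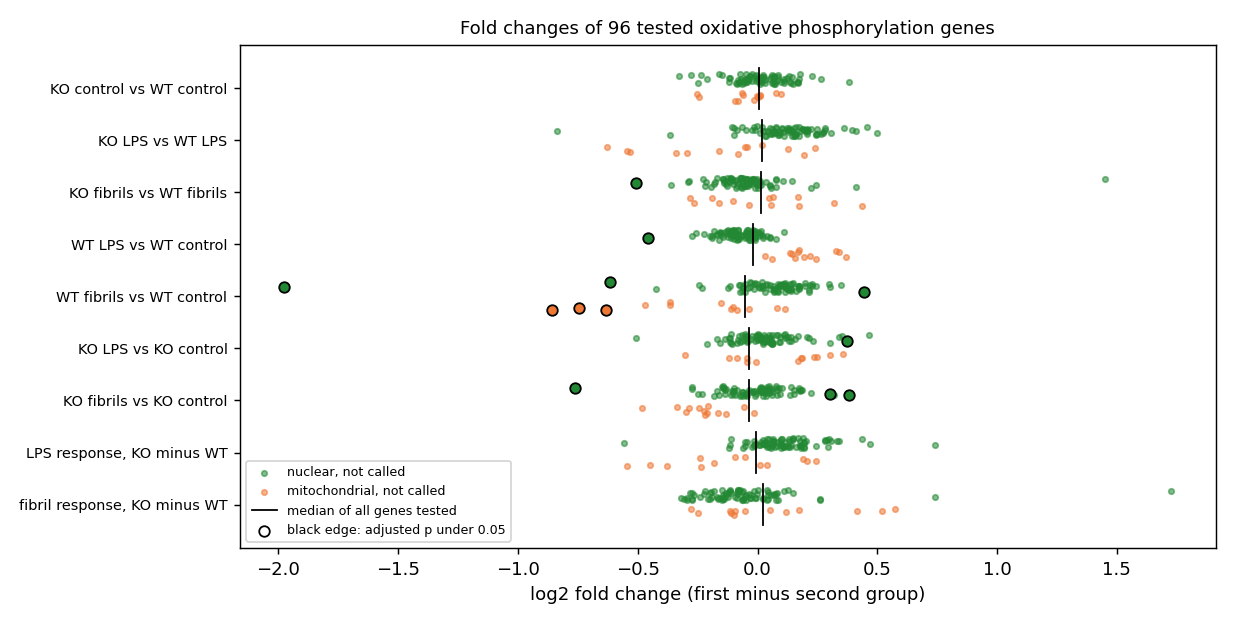
Log2 fold change of each tested member (points) in the 7 pairwise comparisons and the 2 tests of the response between genotypes, nuclear and mitochondrial genes apart. Black edges mark the 12 called pairs of gene and comparison, and vertical lines the median of all genes tested.

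Among the 8 tested assembly factors of complex I, 1 was called with LPS in WT (12.5%), 0 with LPS in KO, 2 with fibrils in WT (25%) and 3 with fibrils in KO (37.5%), against 15.1%, 13.7%, 29.3% and 23.8% of all genes. The share lay below that of all genes in the first 3 and above it in the last, over 8 genes only. The factors dock, modify or join subunits of complex I and leave the finished complex. NDUFAF3 and NDUFAF4 act together early, on the arm that will carry electrons from NADH to the membrane, and NDUFAF7 is a methyltransferase. The promoters of the 3 genes that were called, from 250 bases before to 50 after the start of the RNA (RefSeq, GRCm38.p6), are printed because their genes moved with the same stimulus. Capitals mark the match to the motif of NRF1, and spell the letters that were searched.
Ndufaf3, chr9:108567387-108567686, - strand: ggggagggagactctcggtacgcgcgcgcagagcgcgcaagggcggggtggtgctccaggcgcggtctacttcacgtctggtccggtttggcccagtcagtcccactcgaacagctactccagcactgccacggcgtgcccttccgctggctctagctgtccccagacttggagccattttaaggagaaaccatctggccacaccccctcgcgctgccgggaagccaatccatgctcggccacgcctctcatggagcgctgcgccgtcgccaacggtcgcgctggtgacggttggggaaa
Ndufaf4, chr4:24897833-24898132, + strand: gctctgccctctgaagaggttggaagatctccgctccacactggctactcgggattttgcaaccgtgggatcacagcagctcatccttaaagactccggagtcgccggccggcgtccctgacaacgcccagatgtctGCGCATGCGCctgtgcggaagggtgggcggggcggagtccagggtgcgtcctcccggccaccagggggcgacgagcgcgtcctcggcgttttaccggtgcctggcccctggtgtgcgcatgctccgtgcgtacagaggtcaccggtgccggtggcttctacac
Ndufaf7, chr17:78936885-78937184, + strand: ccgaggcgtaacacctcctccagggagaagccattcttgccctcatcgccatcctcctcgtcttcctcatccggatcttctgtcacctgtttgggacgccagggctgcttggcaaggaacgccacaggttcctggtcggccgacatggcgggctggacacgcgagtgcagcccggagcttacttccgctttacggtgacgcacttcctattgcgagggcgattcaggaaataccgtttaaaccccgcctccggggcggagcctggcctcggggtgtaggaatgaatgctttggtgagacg
The 3 motifs, of regulators known to act on respiratory genes, were searched on both strands: NRF1 (the capitals in Ndufaf4, a motif that reads alike on both strands), the ETS motif that GABP binds (CCGGAAG) and YY1 (ATGGCGGC). The Ndufaf4 window held an NRF1 match whose first base lay at -113, and the Ndufaf3 and Ndufaf7 windows held none of the 3 in these exact letters. Promoters of 73 of the 89 nuclear symbols were in the table used. NRF1 matches occurred in 7 of them (9.59%), Atp5g2, Atp5k, Cox6a1, Ndufa11, Ndufaf4, Ndufaf5 and Uqcrc1, and in 1.07% of 27025 genes, counting a gene when any of its promoters had a match. ETS matches occurred in 16 members (21.9%) against 9.93% of genes, and YY1 matches in 7 (9.59%) against 2.60%.

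Ndufaf3 (chromosome 9, 108565537 to 108567434) rose with fibrils in both genotypes. WT control libraries held 13.2, 12.2, 12.8, 12.9 and 13.7 CPM and WT fibril libraries 16.2, 17.4, 17.1 and 19.8 CPM, every fibril library above every control. The change was 0.44 ± 0.11 (adjusted p = 0.00285, edgeR quasi-likelihood test). KO fibril libraries held 17.5, 17.9, 19.2, 19.2 and 12.3 CPM, and KO controls ran from 12.1 over a median of 14.1 to 15.1 CPM. Replicate 5 with fibrils fell among the controls and the other 4 lay above them (0.30 ± 0.10, adjusted p = 0.0209). That call was lost without KO control replicate 2 (adjusted p = 0.0588), KO fibril replicate 3 (0.0714) or KO fibril replicate 4 (0.0646), with library size alone (0.121) and with only the compared groups (0.146). With LPS the level stayed between 11.3 and 13.2 CPM in WT and between 11.5 and 15.7 CPM in KO, with differences of -0.08 ± 0.10 and -0.00 ± 0.10. Ndufaf3 shares 48 bases with Impdh2 on the opposite strand, which had 41831 counts in all libraries against 9276 for Ndufaf3. Whether Impdh2 reads entered the Ndufaf3 count was not tested.

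Ndufaf4 (chromosome 4, 24898083 to 24905001), the partner of Ndufaf3, was lower with LPS in WT. WT controls held 16.3, 16.4, 13.8, 14.7 and 13.8 CPM, and WT LPS libraries ran from 7.70 over a median of 11.2 to 12.7 CPM, without overlap (-0.46 ± 0.12, adjusted p = 0.0100 in edgeR). In KO the LPS libraries at 15.4, 15.5, 12.7 and 16.5 CPM overlapped their controls (13.7 to 19.4 CPM, median 16.8), and the difference was not called (-0.17 ± 0.13, adjusted p = 0.482). KO against WT under LPS differed by 0.46 ± 0.13, which missed the threshold in edgeR (adjusted p = 0.0708) and passed it in DESeq2 (adjusted p = 0.0263). In edgeR it also passed without 7 libraries that stood apart (0.0112) and without KO control replicate 6 and KO fibril replicate 5 (0.0120). With fibrils Ndufaf4 rose in KO, to 22.9, 21.8, 27.9, 22.0 and 15.2 CPM (0.38 ± 0.12, adjusted p = 0.0232 in edgeR), and all but replicate 5 exceeded every KO control. This call was lost without KO control replicate 2 (adjusted p = 0.0531), KO control replicate 6 (0.0510) or KO fibril replicate 3 (0.115), with library size alone (0.175) and with only the compared groups (0.120). WT fibril libraries at 18.9, 19.4, 18.9 and 16.9 CPM also lay above all WT controls, but the difference of 0.30 ± 0.14 was not called (adjusted p = 0.0929). Of the Ndufaf4 counts 62.8% came from a transcript annotated as not coding for protein. With protein-coding transcripts alone neither change was called, with -0.31 for LPS in WT (adjusted p = 0.521) and 0.32 for fibrils in KO (adjusted p = 0.345).

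Ndufaf7 (chromosome 17, 78937136 to 78948052), the methyltransferase, fell with fibrils in both genotypes. WT control libraries held 7.76, 7.76, 8.75, 7.89 and 8.29 CPM and WT fibril libraries 6.24, 4.18, 4.92 and 5.81 CPM (-0.61 ± 0.14, adjusted p = 0.00231 in edgeR). KO control libraries ran from 6.56 over 9.43 to 10.2 CPM and KO fibril libraries were at 5.93, 4.94, 5.50, 6.01 and 4.05 CPM (-0.76 ± 0.13, adjusted p = 9.51e-05). In neither genotype did fibril and control libraries overlap, and both calls held under all 42 alternative settings, with adjusted p up to 0.0242 in WT and 0.0118 in KO. The difference between the genotypes was -0.15 ± 0.19 with a 95% interval from -0.54 to 0.25. LPS gave 0.00 ± 0.13 in WT and 0.05 ± 0.13 in KO.

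**Figure D4:**
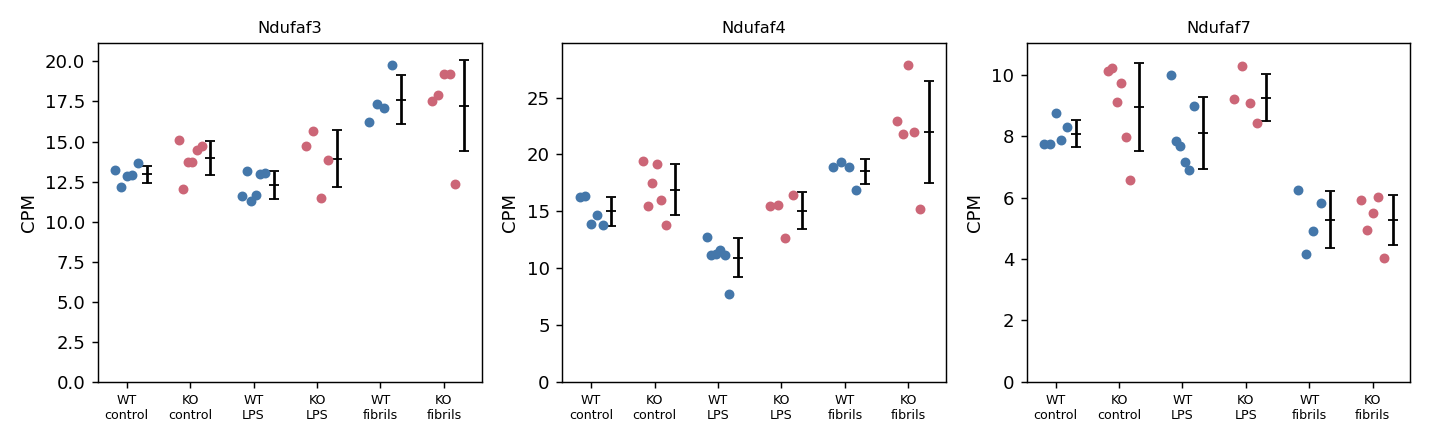
Level (CPM) of Ndufaf3, Ndufaf4 and Ndufaf7 in each library by group, with group means and SD as black marks. Fibril libraries lie above controls for Ndufaf3 and below them for Ndufaf7, except that KO fibril replicate 5 is at 12.3 CPM for Ndufaf3, and Ndufaf4 is lowest in WT LPS libraries.

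Uqcrfs1 (chromosome 13, 30540308 to 30545362) encodes the Rieske iron-sulfur protein, through which complex III hands on electrons. KO LPS libraries held 91.6, 88.5, 83.1 and 99.9 CPM, and KO controls ran from 61.1 over a median of 70.0 to 78.3 CPM. The groups did not overlap (0.37 ± 0.08, adjusted p = 0.00223 in edgeR), and scaled by library size alone the change was not called (adjusted p = 0.112). WT LPS libraries, at 70.2 to 82.5 CPM with a median of 77.1, overlapped the WT controls at 76.0, 67.4, 69.6, 72.9 and 77.4 CPM, with a difference of 0.08 ± 0.08. The difference of the LPS response between genotypes was 0.30 ± 0.12 and was not called (adjusted p = 0.992).

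Cox6a2 (chromosome 7, 128205435 to 128206387), the muscle isoform of complex IV, was scarce and fell with fibrils in WT. WT fibril libraries held 0.802, 0.824, 1.28 and 1.06 CPM against 5.31, 4.31, 4.23, 4.67 and 0.759 CPM in WT controls (-1.97 ± 0.57, adjusted p = 0.0106 in edgeR). Control replicate 6 lay below all fibril libraries and the other 4 controls above them. In KO, fibril libraries at 0.892, 1.59, 1.85, 2.30 and 6.84 CPM overlapped the controls (1.69 to 7.13 CPM, median 2.22). The genotype difference of the response was 1.73 ± 0.73 and was not called (adjusted p = 0.376). Cox6a2 lies within Itgad on the opposite strand, sharing 953 bases, but Itgad had 13 counts in all libraries against 1928 for Cox6a2.

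The mitochondrial calls were all complex I subunits of the proton-pumping membrane arm. WT fibril libraries held 97.6, 90.9, 98.3 and 78.6 CPM of mt-Nd2 (mitochondrial position 3914 to 4951), and WT controls 73.5, 161, 218, 143 and 170.0 CPM. The difference was -0.74 ± 0.27 (adjusted p = 0.0361 in edgeR). For mt-Nd4 (10167 to 11544) the fibril libraries held 141, 117, 146 and 119 CPM and the controls 122, 241, 375, 171 and 277 CPM (-0.86 ± 0.27, adjusted p = 0.0193). For all 3 genes control replicate 1 lay within or below the fibril range and the other 4 controls above it. Mt-Nd5 (11742 to 13565) stood at 141, 124, 156 and 112 CPM with fibrils and 113, 199, 309, 162 and 249 CPM in controls (-0.63 ± 0.21, adjusted p = 0.0276).

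These 3 calls were sensitive to single libraries. Without WT control replicate 3, WT fibril replicate 2 or WT fibril replicate 4 none of the mitochondrial genes was called, and without WT control replicate 6 only 1 was. The other mitochondrial genes of complex I gave -0.11 for mt-Nd1, -0.09 for mt-Nd3, -0.37 for mt-Nd6 and -0.47 for mt-Nd4l, and none was called. Mt-Co1 (0.08) and mt-Co3 (0.11), the 2 most abundant, gave values above 0. In KO with fibrils the same 3 genes gave -0.22 ± 0.24 for mt-Nd2, -0.29 ± 0.24 for mt-Nd4 and -0.22 ± 0.19 for mt-Nd5, none called, and the difference of the fibril response between genotypes was called for none of them.

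Other measurements moved with the WT fibril group. Of 11 microglia markers tested, 2 were higher and 3 lower than in WT controls, and all 12 summed to 6304 to 6696 CPM against 5210.5 to 7422 CPM. With fibrils in KO 3 were lower. Of 5 endothelial and pericyte markers tested, 1 was higher and 3 lower in WT. Of 8 astrocyte markers tested 6 were lower than in WT controls, and all 9 summed to 16.4 to 23.7 CPM against 23.6 to 207 CPM, with Gjb6 at 0. Of 7 fibroblast markers tested 5 were lower, and all 8 summed to 1.76 to 2.23 CPM against 2.04 to 126 CPM. The 11 oligodendrocyte markers summed to 95.9 to 108 CPM against 104 to 207 CPM, with 2 of them, Mobp included, at 0, and the 7 neuron markers to 0.490 to 1.22 CPM against 0.934 to 14.1 CPM, with Nefl at 0. Mitochondrial ribosomal RNA, which the depletion kit targets along with cytoplasmic ribosomal RNA, made up 0.597% to 0.967% of counts in WT fibril, 0.910% to 2.64% in WT control and 1.79% to 3.98% in WT LPS libraries. KO libraries held 0.659% to 4.51% in controls, 0.536% to 0.866% with LPS and 0.756% to 1.28% with fibrils. Low values were thus not particular to WT fibril libraries. With a summary of the other-cell markers as a covariate, mt-Nd4 gave -0.66 (adjusted p = 0.131), mt-Nd5 -0.49 (0.161) and mt-Nd2 -0.48 (0.252), none called, whereas Ndufaf3, Ndufaf7 and Cox6a2 were. Astrocyte, fibroblast and neuron sums overlapped little between WT fibril and WT control libraries, so that fit cannot cleanly separate fibrils from markers. Beyond that fit, the bearing of these measurements on the mitochondrial result was not tested.

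**Figure D5:**
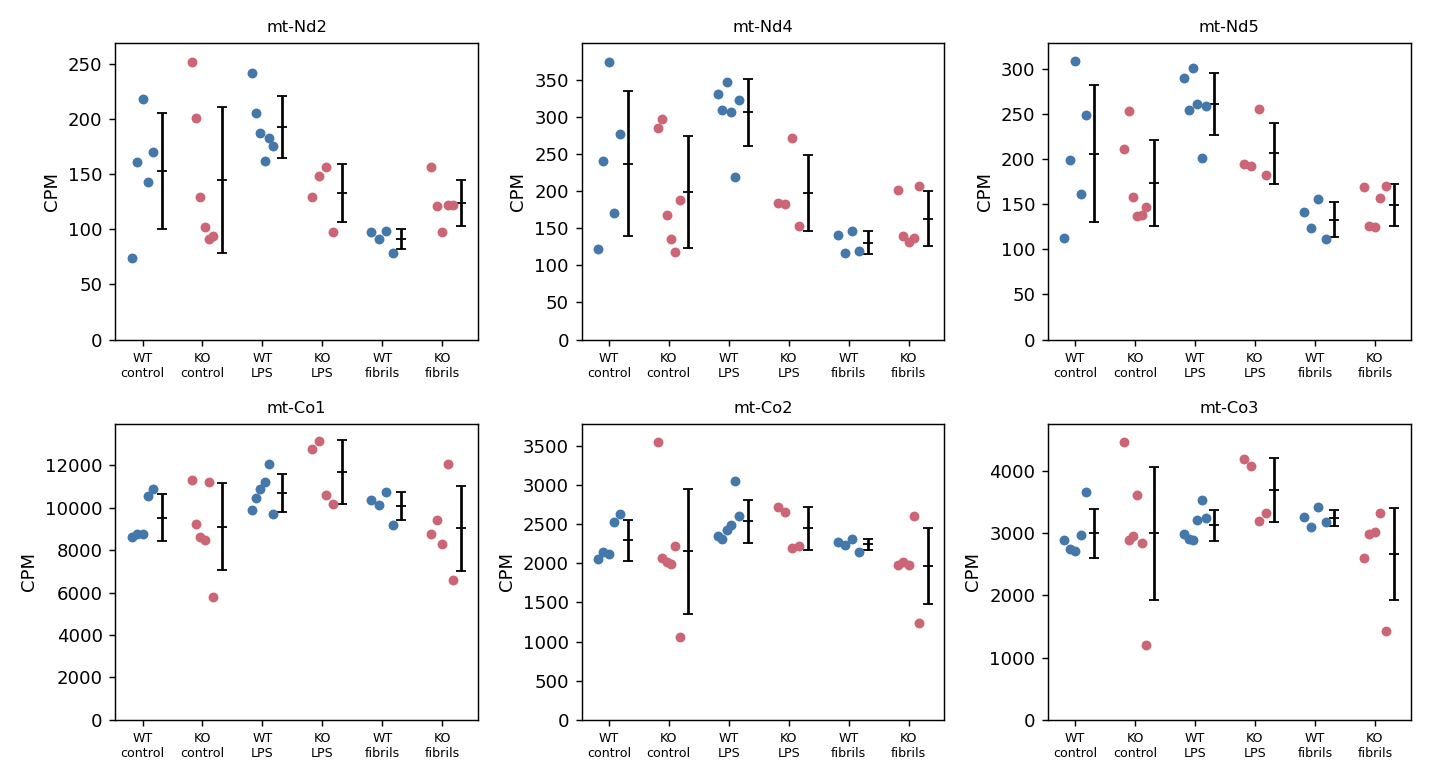
Level (CPM) of 3 complex I and 3 complex IV mitochondrial genes in each library by group, with group means and SD as black marks. In WT fibril libraries mt-Nd2, mt-Nd4 and mt-Nd5 lie below 4 of the 5 WT controls, while mt-Co1, at 9164 to 10716 CPM, lies within the control range of 8616 to 10898 CPM.

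Between KO and WT almost none of these genes was called. In control cultures 0 nuclear and 0 mitochondrial members were called, against 0.314% of all genes (0.153% higher and 0.16% lower in KO). In the nuclear set 1 gene had an unadjusted p under 0.05 in edgeR and in the mitochondrial set 0, and DESeq2 and limma-voom called 0 in both. Of all 14346 genes, 1040 had such a p, and DESeq2 called 98 and limma-voom 57. Medians were 0.01 and -0.01, and the 95% interval lay within 1.5-fold for 80 of 83 nuclear members and 9 of 13 mitochondrial ones, against 56.0% of all genes.

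Under LPS, 0 nuclear and 0 mitochondrial members were called between KO and WT, against 1.69% of all genes (0.453% higher and 1.24% lower in KO). At an unadjusted p under 0.05 there were 11 nuclear and 2 mitochondrial genes, DESeq2 called 2 and 0, and limma-voom called 0 in both sets. Of all 14346 genes, 2471 had such a p, and DESeq2 called 704 and limma-voom 264. The shares of both sets thus lay below those of all genes. The nuclear median was 0.13 with 71 genes above 0, and 0.21 with library size as the only scaling, where that of all genes was 0.11. All 8 tested genes of complex III and 16 of 17 of complex V lay above 0. Leading values were Ndufb2, a small membrane-arm subunit (0.50 ± 0.16, adjusted p = 0.0986 in edgeR), and Ndufaf4, given above. The mitochondrial median was -0.08, and mt-Nd4 (-0.63 ± 0.26, adjusted p = 0.208) and mt-Nd2 (-0.53 ± 0.25, adjusted p = 0.282) were lowest. A model of only the compared groups called 4 nuclear genes and 1 mitochondrial gene. Mitochondrial ribosomal RNA made up 0.536% to 0.866% of counts in KO LPS and 1.79% to 3.98% in WT LPS libraries, without overlap. Its bearing on these values was not tested.

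With fibrils, 1 nuclear and 0 mitochondrial members were called between KO and WT, against 8.85% of all genes (5.18% higher and 3.67% lower in KO). In the mitochondrial set 0 genes had an unadjusted p under 0.05, and DESeq2 and limma-voom called 0. Cox7a2l (chromosome 17, 83501918 to 83517330) was lower in KO. Its levels were 122, 131, 133, 192 and 150.4 CPM in KO and 215, 202, 211 and 201 CPM in WT, all KO libraries below all WT libraries (-0.51 ± 0.13, adjusted p = 0.0192 in edgeR). In WT, fibrils gave -0.00 ± 0.13, and in KO -0.27 ± 0.12 (adjusted p = 0.0983). KO control libraries, at 154 to 221 CPM with a median of 164, overlapped WT controls at 205, 185, 166, 217 and 265 CPM, with a difference of -0.24 ± 0.12 (adjusted p = 0.712). The call was lost without KO fibril replicate 1 (adjusted p = 0.0519), WT fibril replicate 1 (0.0628) or WT fibril replicate 3 (0.0535).

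The same comparison differed in other-cell markers. Astrocyte markers summed to 60.7 to 308 CPM in KO and 16.4 to 23.7 CPM in WT fibril libraries, with 6 of 8 tested called higher in KO, and fibroblast markers to 26.3 to 105 against 1.76 to 2.23 CPM, with 5 of 7 called higher. With the other-cell marker score as a covariate the Cox7a2l difference was -0.13 (adjusted p = 0.751), and its difference between fibrils and control within KO was -0.35 (adjusted p = 0.00201). Astrocyte and fibroblast sums did not overlap between KO and WT fibril libraries, so this fit cannot cleanly separate genotype from markers. The nuclear median of the comparison was -0.05, 0.10 with library size alone and 0.00 without the 7 libraries that stood apart, so no direction of the set was common to these settings. The mitochondrial median was 0.05, 0.20 with library size alone and -0.05 with the marker score.

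The tests of whether the 2 genotypes responded differently called 0 members for LPS and 0 for fibrils, and 0 of all genes in edgeR (DESeq2 called 67 of all genes for fibrils and 0 for LPS, and limma-voom 0 in both). For LPS 4 nuclear and 0 mitochondrial members had an unadjusted p under 0.05 in edgeR, and for fibrils 1 and 0. Of all 14346 genes, 603 had such a p for LPS and 1667 for fibrils. DESeq2 and limma-voom called 0 members in both tests. The fibril differences between genotypes were -0.14 ± 0.14 for Ndufaf3 (adjusted p = 0.741), 0.08 ± 0.18 for Ndufaf4 (0.898) and -0.27 ± 0.18 for Cox7a2l (0.576).

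Other genes of the same system, outside the symbol rule, were followed as lists. Complex II and the electron carrier cytochrome c, 6 genes, had no call with LPS and 1 call each way with fibrils in both genotypes. With fibrils 29.3% of all genes were called in WT and 23.8% in KO, so over 6 genes the list was not set apart. Other scalings are not given for this list. Cycs, which encodes cytochrome c, rose by 0.69 ± 0.14 in WT (adjusted p = 0.000545, edgeR) and by 0.56 ± 0.12 in KO (adjusted p = 0.00141). Sdha, the flavoprotein of complex II, fell in WT (-0.39 ± 0.15, adjusted p = 0.0433), and Sdhd, a membrane anchor of complex II, fell in KO (-0.35 ± 0.09, adjusted p = 0.00381). Sdha was also lower in KO than in WT under LPS (-0.56 ± 0.14, adjusted p = 0.0406), where 1.69% of all genes were called.

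Of 42 tested assembly factors without the Nduf prefix, LPS lowered 8 and raised 1 in WT and lowered 6 and raised 1 in KO, with list medians of -0.18 and -0.17 against -0.02 and -0.04 for all genes. Of all genes 8.03% were called lower and 7.1% higher in WT, and 7.35% and 6.34% in KO. Ttc19, a factor of complex III, rose (0.97 ± 0.13 in WT and 0.62 ± 0.13 in KO). The complex I factors Tmem186 (-0.94 ± 0.10 and -0.83 ± 0.11) and Tmem126b (-0.84 ± 0.13 and -0.87 ± 0.14) fell in both genotypes. Scaled by library size alone, the lowered counts were 25 and 19. The medians of all genes also fell there, to -0.23 and -0.21, and the share of all genes called lower is not given. With fibrils 5 rose and 3 fell in WT, and 2 rose and 1 fell in KO, where 29.3% and 23.8% of all genes were called, among them Higd1a, a complex III and IV factor (0.60 ± 0.10 and 0.29). Bcs1l, which inserts the Rieske protein, fell in WT (-0.70 ± 0.12). With RLE scaling the WT split was 3 and 4, and with library size alone 1 and 7, so the balance of directions depended on the scaling.

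Of 31 tested genes that copy, transcribe or process mitochondrial DNA and RNA, LPS lowered 7 and raised 1 in WT and lowered 7 in KO, against 8.03% of all genes lower and 7.1% higher in WT and 7.35% lower in KO. Polg2, the accessory subunit of the mitochondrial DNA polymerase, fell by 1.20 ± 0.19 in WT and 0.98 ± 0.20 in KO, and Twnk, the replicative helicase, by 0.79 ± 0.14 and 0.86 ± 0.16. Mterf4, a factor of the mitochondrial ribosome (-0.63 ± 0.10 in WT and -0.43 ± 0.10 in KO), and Mgme1, a mitochondrial nuclease (-0.46 ± 0.10 and -0.72 ± 0.11), also fell in both. With fibrils 2 rose in WT and 4 rose and 1 fell in KO, below the 29.3% and 23.8% of all genes, and with library size alone 7 fell and 0 rose in WT. Grsf1 was called lower in KO than in WT with fibrils (-0.28 ± 0.08, adjusted p = 0.0255 in edgeR), as were 3.67% of all genes. The messenger RNAs of the mitochondrial genome itself had no call with LPS in either genotype, as given above.

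Among 9 tested transcription regulators of respiratory genes, LPS raised 3 in WT and 2 in KO, against 7.1% and 6.34% of all genes. Gabpb1 (0.66 ± 0.10 and 0.76 ± 0.10) and Gabpa (0.39 ± 0.06 and 0.36), the subunits of the ETS factor GABP, rose in both, and Ppard, a nuclear receptor, rose in WT (1.09 ± 0.27). With library size alone 2 rose and 1 fell in WT. Fibrils raised Esrra, a nuclear receptor of mitochondrial genes, by 0.36 in each genotype (± 0.11 in WT), and library size alone removed both calls. Ppargc1a, the coactivator of mitochondrial biogenesis, was called lower in WT at the edge of detection, with 0 to 0.0610 CPM against 0.0587 to 1.49 CPM.

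Among 7 tested carriers of ADP, ATP, phosphate and protons, Slc25a3, the phosphate carrier, rose with LPS (0.30 in WT and 0.29 in KO), against 7.1% and 6.34% of all genes. With fibrils 2 rose and 1 fell in each genotype, against 13.9% of all genes higher and 15.5% lower in WT and 12.2% and 11.6% in KO. The outer membrane channel gene Vdac3 rose (0.47 ± 0.09 in WT and 0.31 in KO), and Ucp2, an uncoupling protein family member of immune cells, fell (-0.75 ± 0.23 and -0.64 ± 0.21). The other genes that rose were Vdac2 in WT (0.49 ± 0.11) and Slc25a5 in KO (0.30 ± 0.09). Vdac2 was called lower in KO than in WT with fibrils (-0.40 ± 0.11, adjusted p = 0.0231 in edgeR), as were 3.67% of all genes. With library size alone the LPS counts of this list were 0 higher and 2 lower in WT and 0 in KO.

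Reads of some members could be shared with near-identical copies elsewhere in the genome. At 98% identity or more over at least 100 bases, 30 of 90 nuclear and 7 of 13 mitochondrial members had a copy. The copies of Ndufb2 held counts equal to 195% of its own, those of Ndufc1 146% and those of Atp5j 110%, so the level and the differences given for Ndufb2 are uncertain. The copy of mt-Nd4l covered 99.0% of it and held 79.7% of its count. A copy covered 63.6% of mt-Nd4 but had no row in the table. The same held for copies of mt-Co3 (99.9% covered), mt-Co2 (99.6%), mt-Atp6 (99.6%), mt-Nd3 (99.1%) and mt-Co1 (31.3%). The levels of these mitochondrial genes are therefore uncertain too. Ndufaf3, Ndufaf4, Ndufaf7, Uqcrfs1, Cox6a2, mt-Nd2 and mt-Nd5 had no such copy.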

How the data were processed

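The deposited table holds whole-number read counts per Ensembl transcript for 30 libraries, without normalization. Per the submitters' processing notes, CASAVA 1.7.1, STAR 2.4.2a and the mm10 genome were used, and the counting program and its strand setting were not given in the sources used here. Transcripts were summed per gene by GENCODE M21 (GRCm38), which matched 91320 of 94647 transcripts, and the other 3327 (0.779% to 0.891% of counts per library) were left out. After the edgeR filter on low counts, TMM factors (0.827 to 1.14) and a quasi-likelihood model with a mean per group were fitted in edgeR 4.0.16 under R 4.3.3, with 24 residual degrees of freedom and a common biological coefficient of variation of 0.294. The same pipeline was run on simulated data, with changes larger than most of those reported here put into the WT fibril group only. That run does not bear on smaller changes or on the other comparisons. Levels between genes were scaled to the union of annotated exons. Promoters came from RefSeq tables, and near-identical copies from BLAST 2.17.0.

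Members and lists were chosen with earlier results of these data known. Named were up to 5 called members per direction, comparison and genome, the mitochondrial genes, isoforms, and the highest and lowest gene per complex. Some called genes of the related lists, Lrrk2 and Nnt were named too. Not every gene behind a count in a related list or an alternative setting is named. Exceptions are named as such. Alternatives were RLE scaling, library size alone, no filter, DESeq2 1.42.0, limma-voom (limma 3.58.1), protein-coding transcripts, only the compared groups, the replicate number as a block, and each library left out. Settings added after seeing the data were a covariate that scores markers of other cells, the omission of 7 libraries (KO control replicates 1, 4 and 6, KO fibril replicate 5, WT control replicate 6, WT LPS replicates 1 and 6), and that of 2 of these (KO control replicate 6 and KO fibril replicate 5).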

Additional observations from a re-analysis of the deposited data

Results flagged for a closer look

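In groups of 4 to 6 libraries, 5 of 66 pairs of a value and a group held a library whose gap to its nearest neighbour was large against the range of the group, and chance gives about 1 in 20. For Ndufaf4, WT LPS replicate 6 stood at 7.70 CPM and the other 5 libraries at 11.2 to 12.7 CPM. Cox6a2 was at 0.759 CPM in WT control replicate 6 and at 4.23 to 5.31 CPM in the other controls, and that library also had the lowest summed fibroblast markers of the WT controls. Ndufaf3 was at 12.3 CPM in KO fibril replicate 5, against 17.5 to 19.2 CPM in the other 4, in the library with the lowest mitochondrial messenger RNA of its group. WT LPS replicate 5 was flagged for a low mt-Nd4 level, 219 CPM against 307 to 348 CPM, and for a high sum of the 13 mitochondrial genes, 22560 CPM against 19330 to 20440 CPM.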

How the results depend on the processing

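Of 756 pairs of a count of called members and an alternative, 719 stayed within 1.5 times the count and 37 moved. That total is no measure of stability. Several of the 18 counts were 0 in all 42 alternatives, and 30 of these left out 1 library, often outside the comparison. Equal counts can also hold other genes. For fibrils in KO, library size alone kept the count of 3 with Ndufaf7, Cox7a2l and Atp5c1, all lower. Of 504 pairs of a called gene and an alternative, 465 kept the call, 39 lost it and 0 reversed. Nuclear counts moved as follows. KO against WT under LPS went from 0 to 1 with library size alone, 2 with DESeq2, 4 with only the compared groups, 1 without 7 libraries and 4 without KO control replicate 6 and KO fibril replicate 5. KO against WT with fibrils went from 1 to 2 with DESeq2 and without 7 libraries, and to 0 with the marker score. LPS in WT went from 1 to 33 with library size alone, 2 with only the compared groups and 0 with protein-coding transcripts, and LPS in KO from 1 to 3 with library size alone and 2 without 7 libraries. Fibrils in WT went from 3 to 9 with only the compared groups and without 7 libraries, and 6 without the pair of libraries. Fibrils in KO went from 3 to 1 with only the compared groups and 10 without 7 libraries. Mitochondrial counts moved from 0 to 1 (KO against WT under LPS, only the compared groups), 0 to 2 (LPS in KO, without 7 libraries) and 3 to 0 (fibrils in WT, marker score). Most of these counts stand without the share of all genes called in the same setting. Causes were not tested.

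Leaving out each library in turn gave 0 to 1 nuclear calls for KO against WT under LPS and with fibrils, 3 to 5 for fibrils in WT, 1 to 2 for LPS in KO, 1 to 5 for fibrils in KO, and 0 to 3 mitochondrial calls for fibrils in WT. The call of mt-Nd2 also missed the threshold with limma-voom (adjusted p = 0.0581) and without the filter (0.0509), and that of mt-Nd5 without 7 libraries (0.0665). Ndufaf3 with library size alone had adjusted p = 0.0822 in WT and 0.121 in KO.

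Replicate numbers were not taken to pair the libraries, since not every same-numbered pair correlated over 0.1: the 64 pairs ran from -0.519 to 0.655 (median 0.0531, against -0.0056 for other numbers), and 25 passed. That 12 of 30 libraries correlated best with a library of their own number is a hint of pairing from the data, not the design. With the replicate block, KO against WT with fibrils had 2 nuclear calls and the other 17 counts stayed within 1.5 times. Low counts limit scarce genes such as Cox6a2 and Cox7a1, and the SE of the mitochondrial genes limits what could be called there.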
